A study of Drosophila melanogaster with 63 samples.

Results

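RNA of whole larvae aged 88 h after egg laying was set against that of 40 h larvae on 2-colour spotted DNA arrays. The comparison is held by the 4 arrays whose titles name larval development at 88 h, out of 63 arrays in the series, and it covers 9212 genes. The larvae were of the OregonR strain, a standard laboratory wild type of Drosophila melanogaster, and were raised at 25 °C on apple juice agar plates with yeast. Those of the older group were collected between 87 and 89 h and those of the control between 39 and 41 h, and total RNA was hybridised. No mutation, transgene or drug was recorded for either group. The other larval groups of 52, 64, 76 and 100 h were set against the same 40 h control, and 38 further arrays in 7 groups compared adult flies kept without food or on sugar with yeast-fed adults.

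Each value is a log2 ratio. The direction is likely 88 h over 40 h: the labels name the larvae of 40 h as the control, and the genes with the highest values include storage and glue genes known from late larvae. Since these genes helped to settle the direction, the side on which they lie is no independent result. On 2 of the 4 arrays the larvae of 88 h were in channel 2 and on the other 2 in channel 1. All 4 arrays carry a single merged value per spot, so the comparison has 1 value per gene, without a standard deviation and without any test, and nothing in the labels says whether the arrays came from separate collections of larvae. The yardstick that remains is technical. Among the 645 genes represented by exactly 2 clones on the array, the values of both clones differed by 0.21 at the median and by 0.91 at the 95th percentile. A gene is called higher or lower below when its ratio reached 2-fold, and this call describes these arrays only.

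Drosophila larvae feed and grow through successive instars separated by moults, at which a new cuticle is laid down and the old one is shed. By textbook staging, larvae of 40 h are in the first instar and larvae of 88 h in the final one. In that last instar the fat body, which combines functions of liver and adipose tissue, fills the haemolymph with storage proteins. The salivary glands then begin to make the glue that fixes the pupal case to a surface. The steroid ecdysone drives the moults and pupariation, and juvenile hormone and insulin signalling set when growth ends. Because whole larvae were used, fewer cells of a type and less RNA per cell cannot be told apart, and each ratio is relative to the total labelled RNA.

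At 88 h the ratio was 2-fold or more above the control for 297 (3.22%) of the 9212 genes and 2-fold or more below it for 390 (4.23%). The median ratio was -0.03, with quartiles of -0.25 and 0.18, so most genes lay well inside 2-fold. The split depends on where 0 is set: with the median of the cytosolic ribosomal protein genes placed at 0, 462 genes were higher and 261 lower. The tails were long on both sides. At 4-fold or more, 78 genes were higher and 88 lower, and at 8-fold or more 27 were higher and 33 lower. The highest value was 8.84 and the lowest -5.60. Most calls rested on 1 clone: 282 of the 297 higher genes and 370 of the 390 lower genes had a single clone. Genes known only by an annotation number made up 44.1% of the higher and 43.3% of the lower genes, against 42% of all genes.

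**Figure D1:**
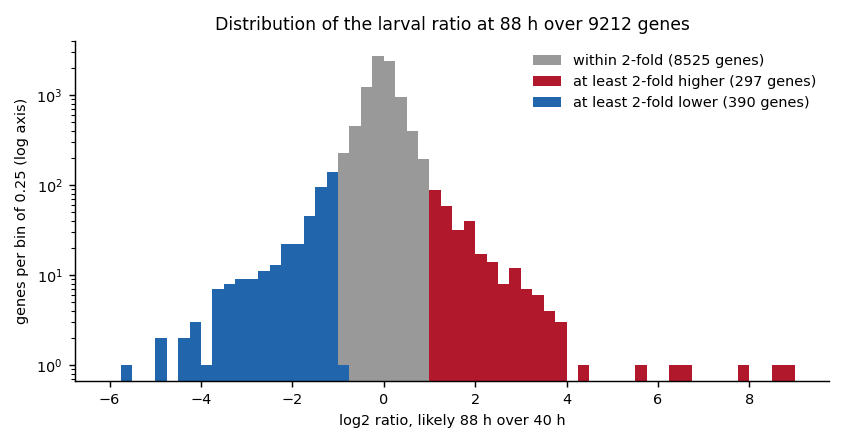
Number of genes (log axis) in bins of 0.25 of the log2 ratio, likely 88 h over 40 h, for all 9212 genes. The 297 genes at least 2-fold higher (red) reach 8.84 and the 390 at least 2-fold lower (blue) reach -5.60, on both sides of a bulk centred at -0.03.

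The genes lay apart by tissue. Genes of the fat body, the haemolymph, the salivary gland and the gut were prominent among the higher ones. Tweedle cuticle proteins and genes of ribosome assembly and of the mitochondrial ribosome were prominent among the lower ones, and other cuticle proteins were found on both sides. Markers of the nervous system, the eye and imaginal disc patterning, with 24, 16 and 40 measured genes, had list medians of -0.09, -0.05 and -0.02 and held no gene past 2-fold.

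**Figure D2:**
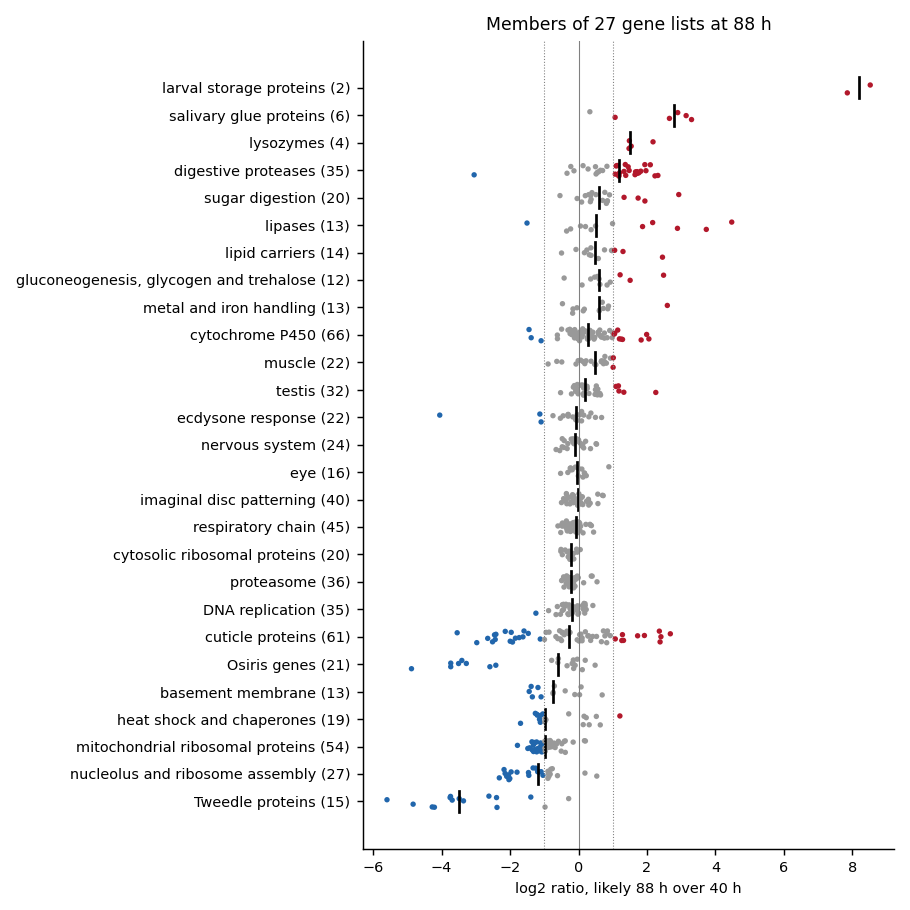
Log2 ratio, likely 88 h over 40 h, of each measured gene (points) in 27 gene lists, with the number of genes in brackets and the list median as a black bar; red and blue points are genes at least 2-fold higher or lower. The list medians run from 8.19 for the storage proteins to -3.49 for the Tweedle proteins.

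The highest ratios belonged to products of the fat body. Lsp2, a larval storage protein of the haemolymph that is broken down for its amino acids during metamorphosis, stood at 8.52, or 368-fold. CG11538 stood at 8.84, but that name has been used both for Lsp2 and for an RNA on its opposite strand. Spot and strand cannot be separated here, so it is counted as uncertain. Fbp2, a fat body protein related to alcohol dehydrogenase, stood at 7.85, or 231-fold. With Lsp2 it formed the whole measured part of the storage list, 2 of 2 genes higher with a median of 8.19, against 3.22% of all genes.

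These genes were already above the control at earlier ages. Lsp2 was at 3.28 at 52 h, 2.15 at 64 h, 6.09 at 76 h, 8.52 at 88 h and 8.26 at 100 h, all against the same 40 h control. For Fbp2 the values in the same order were 2.91, 2.04, 6.27, 7.85 and 7.51. Both were thus lower at 64 h than at 52 h, and at 88 h they stood above every other age sampled. Obp99b, a member of the odorant-binding family of small secreted proteins, reached 5.55 at 88 h and 6.94 at 100 h. Its 2 clones gave 4.34 and 6.76, which is farther apart than the 95th percentile of clone differences, and both were far past 2-fold. Of the 27 odorant-binding genes measured, Obp99b and Obp99c, the latter at 1.70, were the higher ones, against 3.22% of all genes. The list median was 0.12. Among genes with only an annotation number, CG42500 was at 6.63 and CG30029 at 6.38, between Fbp2 and Obp99b.

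Haemolymph and blood cell genes followed. Tsf1, the iron carrier transferrin, stood at 2.60, the higher gene of 13 in metal and iron handling. PPO2 and PPO1, prophenoloxidases that crystal cells release for wound melanisation, stood at 3.20 and 2.81. PPO3, the prophenoloxidase of lamellocytes, stood at 1.49. These were the 3 higher genes among 25 blood cell genes, against 3.22% of all genes, and the list median was 0.30. The lower ones were the collagen IV chains vkg at -1.35 and Col4a1 at -1.18. NimC2, a relative of the phagocytic receptors of plasmatocytes, was at 0.45 at 88 h and at 3.90 at 100 h.

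A few genes of lipid carriage, lipid synthesis and carbohydrate storage were in the higher tail, which held 3.22% of all genes. Among 14 lipid carriers, 3 were higher: Acbp6, an acyl-CoA-binding protein, at 2.45, Npc2a, a sterol-binding protein, at 1.30, and apolpp, the lipophorin precursor, at 1.06. The median of that list was 0.47. Of 12 genes of gluconeogenesis, glycogen and trehalose, 3 were higher. Pepck1, which commits carbon to gluconeogenesis, stood at 2.49. AGBE, the glycogen branching enzyme, stood at 1.51, and Tps1, which makes the blood sugar trehalose, at 1.22. The glucose-6-phosphatase gene G6P was at -0.42. In the synthesis of fatty acids and triglycerides 3 of 21 genes were higher: FASN1, a fatty acid synthase, at 1.46, Lsd-2, a lipid droplet perilipin, at 1.33, and Desat1, a fatty acid desaturase, at 1.06. The median of this list was 0.14.

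Central energy metabolism held no gene past 2-fold. The 10 glycolysis genes had a median of 0.19, the 10 genes of the tricarboxylic acid cycle -0.16, the 15 of lipid breakdown 0.20 and the 13 of amino acid breakdown 0.35. In purine and folate metabolism, with 21 genes and a median of 0.17, Gnmt, a glycine methyltransferase, stood at 1.81 and Mthfs at 1.17. The gene pair for the entry step of purine synthesis lay on opposite sides of 0: Prat stood at -1.30 and Prat2 at 0.91.

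**Figure D3:**
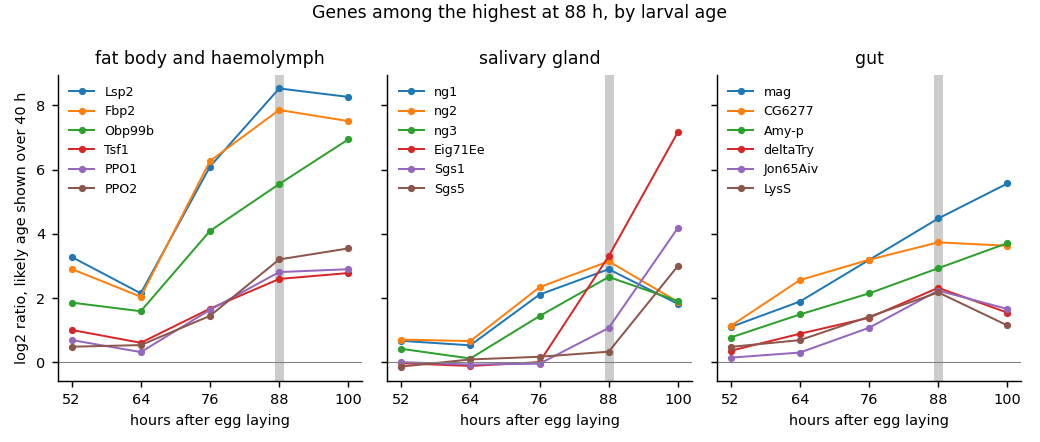
Log2 ratio to the shared 40 h control (vertical axis) at 52, 64, 76, 88 and 100 h after egg laying (horizontal axis) for genes of the fat body and haemolymph, the salivary gland and the gut; 1 merged value per point, with 88 h shaded. Lsp2 goes from 2.15 at 64 h to 8.52 at 88 h, and Eig71Ee from 0.01 at 76 h to 3.30 at 88 h and 7.17 at 100 h.

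The salivary gland genes differed in timing. Of 6 measured glue genes 5 were higher at 88 h, against 3.22% of all genes, and the median was 2.78. The new glue genes ng1, ng2 and ng3, which lie next to each other and are expressed in the gland before the main glue genes, stood at 2.90, 3.14 and 2.66. They were already at 2.11, 2.34 and 1.44 at 76 h, and at 100 h they stood at 1.82, 1.88 and 1.91. Each of the 3 thus had its highest value at 88 h. Eig71Ee, a gland gene induced by ecdysone, was at 0.01 at 76 h, 3.30 at 88 h and 7.17 at 100 h. Sgs1, a glue protein proper, was at -0.04 at 76 h, 1.07 at 88 h and 4.18 at 100 h. Sgs5, another glue protein, was at 0.33 at 88 h and at 3.00 at 100 h. At 88 h the new glue genes were near their top while Sgs1 was just past 2-fold and Sgs5 within it.

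The gut was represented by many digestive enzymes. Among 35 digestive proteases 22 were higher by 2-fold or more and 1 lower, with a median of 1.18, against 3.22% higher and 4.23% lower among all genes. These counts include cathD at 1.77 and CtsB at 1.65, lysosomal proteases that are counted again below with the autophagy genes. The trypsins held 7 higher genes of 11, with a median of 1.37. The Jonah proteases, serine proteases of the larval midgut, held 9 of 13, between 0.51 and 2.23. deltaTry at 2.32, Jon65Aiv at 2.23, thetaTry at 2.10, Jon65Aiii at 1.97 and yip7 at 1.94 were the highest of this list. The lower gene was CtsL2, a cathepsin L relative, at -3.05, and lambdaTry at -0.34 and zetaTry at -0.23 lay within 2-fold. The medians of the list at the other ages were 0.20 at 52 h, 0.57 at 64 h, 0.91 at 76 h and 0.92 at 100 h. Several of these genes are near-identical copies, so a clone of one may also have bound RNA of its neighbours, and values for single copies are uncertain.

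Of the enzymes for starch, sugar and fat a minority was past 2-fold. Amy-p, an amylase that splits starch and has a near-identical copy, stood at 2.93, with its 2 clones at 2.87 and 2.99. The alpha-mannosidases LManIII, LManVI and LManV stood at 1.94, 1.74 and 1.33. They and Amy-p were the 4 higher genes of 20 in sugar digestion, against 3.22% of all genes. The median of that list was 0.61, and its lowest gene was Mal-B1 at -0.54. Among 13 lipases 5 were higher and 1 lower, against 3.22% and 4.23% of all genes, with a median of 0.50. The lipase gene mag, whose product acts in the gut, stood at 4.48, or 22.3-fold, after 3.19 at 76 h and before 5.57 at 100 h. CG6277 followed at 3.73, CG6271 at 2.89, CG8093 at 2.17 and Lip3 at 1.87, while Lip1 stood at -1.51. All 4 lysozymes kept in the list, which break down bacterial walls in the gut, were higher, against 3.22% of all genes. LysS stood at 2.18, LysX at 1.54, LysP at 1.49 and LysE at 1.48. An entry of this list was removed as a naming error after the data were seen, so the count of 4 of 4 followed that choice. LysE, LysP and LysS are neighbours whose clones may have bound each other's RNA.

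The list for the peritrophic matrix, the chitin sheet that lines the gut, was mixed, with 3 higher and 2 lower of 17. Its median was 0.15, and 3.22% and 4.23% of all genes were higher and lower. The lower members, Gasp and Muc91C, are linked to the cuticle by site or timing. A fall of matrix genes cannot be read from them. Mur18B stood at 1.29, Peritrophin-15a at 1.27 and Peritrophin-15b at 1.26. Gasp, a chitin-binding protein that is also found in the tracheal cuticle, stood at -1.49. Muc91C stood at -4.19 and followed the cuticle genes in time, at -3.75 at 52 h, -1.44 at 64 h, -3.91 at 76 h and -4.01 at 100 h.

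The lowest values belonged to the epidermis. The Tweedle proteins form a family of cuticle proteins known for setting body shape. Lower values of 2-fold or more were found in 13 of the 15 measured by name and higher ones in none, against 4.23% lower among all genes, and their median was -3.49. TwdlD was lowest at -5.60, a level 48.4-fold higher in the larvae of 40 h, followed by TwdlF at -4.83, TwdlG at -4.27 and TwdlW at -4.21. TwdlJ at -0.98 and Twdlalpha at -0.29 lay within 2-fold. The member named Tb, after the short-bodied Tubby mutant, was not in the list and stood at -1.95.

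The family had an age pattern. Its median was -2.68 at 52 h, -0.35 at 64 h, -3.28 at 76 h, -3.49 at 88 h and -3.95 at 100 h. TwdlD itself was at -3.73, -1.56, -4.74, -5.60 and -6.77 at these ages. The family median was thus nearest to the control at 64 h, while single members differed at that age: TwdlC was at -1.77, TwdlJ at 2.57 and Twdlalpha at 1.30. Twdlalpha was also above the control at 52 h, at 0.40, and at 76 h, at 0.92, and below it at 88 h.

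The Osiris genes encode membrane-associated proteins of cells that build chitin and cuticle, and they split into separate sets. Of 21 measured, 8 were lower, against 4.23% of all genes. All 8 were at -2.42 or below, and the remaining members lay between -0.79 and 0.49. The lower set held Osi6 at -4.88, Osi14 and Osi20 at -3.73, Osi15 at -3.51, Osi19 at -3.41, Osi2 at -3.28, Osi7 at -2.59 and Osi18 at -2.42. No measured member stood between Osi18 and Osi24, which was at -0.79. Osi6 was at -3.05 at 52 h, -0.64 at 64 h and -4.70 at 76 h, the same order of ages as for the Tweedle median. ImpL1, a gene first found as ecdysone-inducible in imaginal discs, ran likewise at -1.83, 0.15, -3.69, -4.05 and -4.35 from 52 to 100 h.

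**Figure D4:**
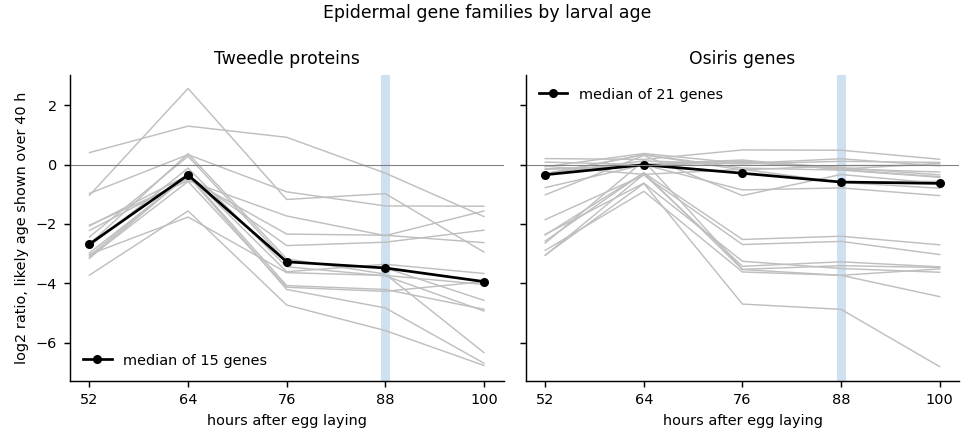
Log2 ratio to the shared 40 h control (vertical axis) by hours after egg laying for 15 Tweedle and 21 Osiris genes (grey lines, 1 merged value per point) with the median over genes in black and 88 h shaded. The Tweedle median is -0.35 at 64 h and -3.49 at 88 h, and 8 Osiris genes lie at -2.42 or below at 88 h while the others lie between -0.79 and 0.49.

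Structural cuticle proteins other than Tweedle went both ways. Of 61 measured, 17 were lower and 10 higher, against 4.23% and 3.22% of all genes, with a median of -0.29. Cpr51A stood at -3.55, Cpr64Ab at -2.97, Cpr65Ea at -2.65, Ccp84Ac at -2.51 and Ccp84Ae at -2.46. On the other side Cpr92F stood at 2.68, Cpr47Ec at 2.41, Vajk3 at 2.38, Vajk2 at 2.36 and Cpr67B at 1.93. Members past 2-fold thus lay on both sides, and the medians of the list at 52, 64, 76 and 100 h were -0.35, 0.09, -0.26 and -0.45. Acp1, named as an adult cuticle protein, stood at 1.73 at 88 h and at -1.19 at 100 h.

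Enzymes that harden and colour the cuticle were lower in 4 of 17 cases and higher in 2, against 4.23% and 3.22% of all genes. Ddc, which makes dopamine, stood at -1.69, with its 2 clones at -1.90 and -1.48. amd, a related decarboxylase-like protein of cuticle formation, stood at -1.28, and the pigment gene y, or yellow, at -2.01. ple, the tyrosine hydroxylase upstream of Ddc, was at -0.93, just inside 2-fold. The yellow relatives were divided, with yellow-h at -1.46 and yellow-d2 and yellow-e at 3.05 and 1.84. Among 24 chitin genes, the chitin deacetylases verm and serp stood at -1.17 and -1.16 and the chitinase-family gene Cht9 at 1.77. The 6 Idgf genes, chitinase-like secreted factors, lay between 0.42 and 0.87, with a median of 0.67 and none past 2-fold.

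The machinery that makes ribosomes was lower, and its parts differed. Of 27 genes of the nucleolus and ribosome assembly, 17 were lower and none higher, against 4.23% and 3.22% of all genes, with a median of -1.19. mod, a nucleolar RNA-binding protein, stood at -2.31, NHP2 at -2.18, hoip at -2.15, and Nop60B, the pseudouridine synthase of ribosomal RNA, at -2.10. The median stepped from -0.33 at 52 h to -0.45, -0.80, -1.19 and -1.48 at the later ages. mod itself was at -0.68, -1.19, -1.71, -2.31 and -2.66. Rrp1 at 0.53 was the highest of the list, and it encodes a DNA repair nuclease.

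Mitochondrial ribosomal proteins were lower in 25 of 54 cases, against 4.23% of all genes, none was higher, and the median was -0.98. The 36 proteins of the large subunit had a median of -0.91 and the 18 of the small subunit -1.04. mRpL12 stood at -1.78, mRpS6 at -1.48 and mRpS18A at -1.43, while mRpL16 at 0.20 and mRpL3 at 0.17 lay above 0. The list was at -0.13 at 52 h, -0.32 at 64 h, -0.48 at 76 h and -1.50 at 100 h. The respiratory chain, whose core subunits the mitochondrial ribosome makes, was at -0.08 at 88 h over 45 nuclear genes, with none past 2-fold, and at -1.06 at 100 h.

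Chaperones gave a further set. Of 19 heat shock and chaperone genes 8 were lower and 1 higher, against 4.23% and 3.22% of all genes. The subunits of the chaperonin CCT, the ring complex that folds actin and tubulin, made up 7 of those 8: the 8 measured CCT genes lay between -1.26 and -0.99, with a median of -1.13. These values lie near the 2-fold threshold, so the count depends on where 0 is set. This group was described after its values were seen. At the other ages the CCT median was -0.11, -0.42, -0.72 and -1.32. The remaining lower gene was Hsc70-5, the mitochondrial Hsp70, at -1.69, and the stress-inducible Hsp68 stood at 1.21. The histone chaperones Nlp and Nap1 stood at -1.24 and -1.15, the lower ones of 19 histone and chromatin genes, whose median was -0.03.

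Other growth lists held at most 1 gene past 2-fold each, except for the secretory pathway. Its 30 genes held 1 higher and 1 lower gene, with values from -1.03 to 1.17 and a median of -0.15. The 20 cytosolic ribosomal proteins measured had a median of -0.22 and the 36 proteasome subunits -0.23, with no member of either past 2-fold. Of 40 translation factors, eIF6, which also acts in assembly of the large ribosomal subunit, was lower at -1.25, and the median was -0.28. Of 27 tRNA synthetases, LeuRS-m was lower at -1.31, with medians of -0.60 for the 13 cytosolic enzymes, all between -0.98 and -0.28, and -0.26 for the 14 mitochondrial ones. Of 35 DNA replication genes 1, which encodes a histone-binding subunit of several chromatin complexes, was lower at -1.25, and the median was -0.19. The 23 mitosis genes had a median of 0.10 and none was past 2-fold.

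**Figure D5:**
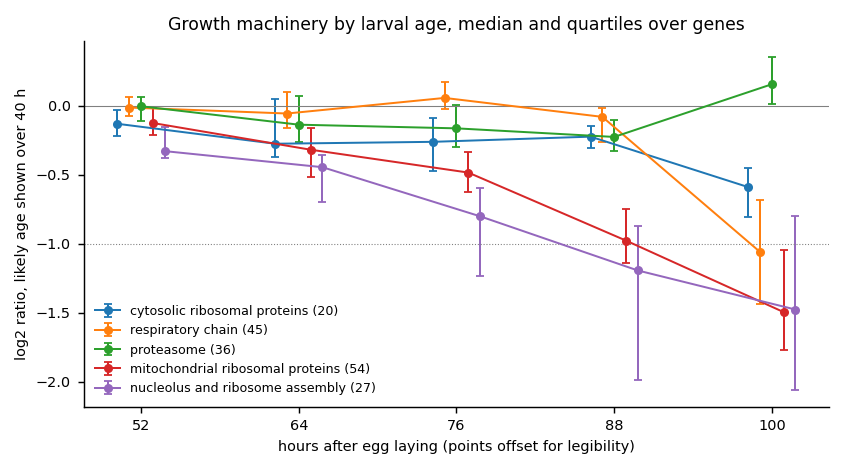
Median log2 ratio to the shared 40 h control over the genes of 5 lists (points; bars are the quartiles over genes, not replicate error) by hours after egg laying. At 88 h the nucleolus list is at -1.19 and the mitochondrial ribosomal proteins at -0.98, while cytosolic ribosomal proteins, respiratory chain and proteasome lie between -0.23 and -0.08.

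Hormone lists held 5 genes past 2-fold at 88 h, a number to be read against the 3.22% higher and 4.23% lower of all genes. Among 22 genes of the ecdysone response 3 were lower: ImpL1, the nuclear receptor gene Eip78C at -1.13, and Cyp18a1, which inactivates ecdysone, at -1.09. The ecdysone receptor EcR was at 0.36 and the early gene br at 0.67, with the 3 br clones between 0.23 and 0.85. At 100 h they stood at 0.86 and 1.56. The 10 genes of ecdysone synthesis had a median of 0.26 and none was past 2-fold, sro being highest at 0.75. Jheh2, a juvenile hormone epoxide hydrolase, stood at 1.27 and the juvenile hormone-inducible JhI-26 at 1.20, the higher ones of 8 juvenile hormone genes. No gene of 20 in insulin and TOR signalling was past 2-fold, and the insulin-binding protein ImpL2 was at 0.09 at 88 h and 1.95 at 100 h.

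Basement membrane genes were lower in 5 of 13 cases, against 4.23% of all genes, with a median of -0.74. They were the laminin chains LanB2 at -1.44, wb at -1.38 and LanA at -1.09, together with the collagen IV chains vkg and Col4a1. wb was at 0.35 at 76 h and at 0.21 at 100 h, so that its low value occurred at 88 h alone among the late ages. That value rests on a single clone and is uncertain. Pxn, a peroxidase of the matrix, was at 0.69.

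Muscle genes lay slightly above 0, with a median of 0.49 over 22 genes against 0.19 at 76 h and -0.03 at 100 h. Mlc2, a myosin light chain, stood at 1.02 and TpnC73F, a troponin C, at 1.01, both just past 2-fold. They were the 2 higher genes of the list, against 3.22% of all genes. Argk1, arginine kinase, was at 0.81, but its 2 clones disagreed at -0.22 and 1.85. fln, a flight muscle protein with a single clone, was at 0.67 at 76 h, -0.64 at 88 h and 0.72 at 100 h.

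Testis markers were higher in 5 of 32 cases, against 3.22% of all genes, with a median of 0.20. Mst77F, a chromatin protein of sperm, stood at 2.26, Mst84Db at 1.32, the testis beta-tubulin betaTub85D at 1.18, Mst98Cb at 1.17 and dj at 1.09. Mst77F was at 1.05 at 76 h and 2.98 at 100 h, and betaTub85D at 0.53 and 1.92. The 24 germline genes had a median of -0.07 and none was past 2-fold. Among 20 yolk and eggshell genes Yp3, a yolk protein, stood at 1.67, against 1.11 at 76 h and 0.51 at 100 h.

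Counts in the defence and detoxification lists are to be read against the 3.22% higher and 4.23% lower of all genes. Drs, the antifungal peptide drosomycin, stood at 2.47 and its relative Drsl5 at 1.86, the higher ones of 8 antimicrobial peptide genes with a median of 0.21. Of 41 genes for recognition proteins, serpins and related factors 4 were higher, namely the serpin genes Spn88Eb at 1.56, Spn43Ab at 1.55 and nec at 1.47, and the glucan-binding GNBP3 at 1.12. The serpin gene Spn100A was lower at -1.62. Among 66 cytochrome P450 genes 9 were higher and 3 lower, against 3.22% and 4.23% of all genes, with a median of 0.27. Cyp4d8 stood at 2.06, Cyp28a5 at 1.99 and Cyp4e3 at 1.83, while Cyp301a1 stood at -1.45 and Cyp4c3 at -1.38. Glutathione transferases held 1 higher and 1 lower gene of 30, near the shares among all genes, with a median of 0.17. UDP-glycosyltransferases held 2 higher and 2 lower of 32, with a median of -0.12. None of the 4 Turandot stress peptides was past 2-fold. Cat, the catalase gene, stood at 1.61, the higher gene of 12 in the antioxidant list, whose median was -0.11. The lysosomal proteases cathD and CtsB stood at 1.77 and 1.65, the higher ones of 27 autophagy and lysosome genes with a median of 0.11. The cathepsin inhibitor cer stood at 2.49.

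The step from 76 to 88 h was small. Differences between these ages drop the shared control. Among 9212 genes, 64 (0.695%) exceeded their value at 76 h by 2-fold or more and 15 (0.163%) fell short of it by as much. CG30029 differed most, at 2.02 at 76 h and 6.38 at 88 h, a difference of 4.36. It was followed by CG17105 with a difference of 3.32, Eig71Ee with 3.30 and CG34227 with 3.12. Lsp2 and Sirup, whose product is an assembly factor of succinate dehydrogenase, each differed by 2.43, and the pigment relative yellow-d2 by 2.14. Lower at 88 h were wb by a difference of -1.73, fln by -1.30 and Twdlalpha by -1.21, each from a single clone.

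The step to 100 h was larger and ran both ways. Among 9197 genes measured at both ages, 194 (2.11%) had a value at 88 h that exceeded that at 100 h by 2-fold or more, and 112 (1.22%) were lower by as much. Those lower at 88 h were led by CG11854, at 1.01 against 5.78, the cuticle gene Cpr78E, at 1.28 against 5.33, and Eig71Ee, with a difference of -3.87. BNIP3, a receptor for removal of mitochondria, was at 1.28 against 3.88, and Sgs1 differed by -3.11. Those higher at 88 h were led by CG14147 with a difference of 4.10, which was itself at -4.49 at 88 h, and by the cuticle gene Cpr47Eg, at 0.73 against -3.05. Acp1 differed by 2.92.

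Of the higher genes with values at all 5 ages, 145 had their highest value at 88 h, and 25 of them exceeded every other age by at least 0.5. This set held Acp1, ng1, ng2, ng3, deltaTry, alphaTry, LysS, CG6271, Jon74E, TpnC73F, Cyp4e3, Yp3 and Cat among others. It thus included the new glue genes and several digestive enzymes, whereas the digestive genes mag and Amy-p were higher still at 100 h. Of the lower genes 98 had their lowest value at 88 h, and 7 by at least 0.5. Genes in these counts were first chosen by their value at 88 h, which itself favours a peak or trough there. The share of all genes with a peak or trough at 88 h was not counted, so the counts show no trait of this age. CG9997 stood at -1.19 at 88 h and between -0.12 and 0.12 at the other ages, and the odorant receptor gene Or45a at -1.01 against values from -0.25 to 0.26.

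Some called genes were neighbours on the chromosome. In the gene order of the RefSeq annotation of genome release 6, which placed 8979 of the genes, 12 runs of at least 3 adjacent measured genes were called the same way. They held 46 genes: 29 of the 297 higher genes lay in 8 runs and 17 of the 390 lower genes in 4 runs. The longest run held 7 higher genes, thetaTry, alphaTry, epsilonTry, betaTry, deltaTry, iotaTry and CG12384, between 1.07 and 2.32. Other runs of higher genes were the Jon25B and the Jon65A proteases, the lysozymes LysE, LysP and LysS, and the lipase relatives CG6296, CG6277 and CG6271 at 1.51, 3.73 and 2.89. The new glue genes with CG14265 at 1.15, the set CG8997, CG7916 and CG7953 at 2.20, 2.85 and 2.12, and the set Jig, CG8087 and CG14852 at 3.66, 2.07 and 2.85 completed them. The lower runs were Osi18 to Osi20, 4 Ccp84A cuticle genes with Ccp84Ac lowest at -2.51, the set TwdlR, TwdlS, TwdlD, Tb and TwdlQ, and the set CG3598, CG14420, CG14421, CG14422 and CG14423 between -3.49 and -1.62. Most of these runs are tandem families, whose copies may have bound each other's RNA.

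The adult groups differ from the larval comparison in control, life stage and treatment, which limits what can be read from setting them side by side. Across genes, the correlation of the ratios at 88 h with those of the 7 adult groups lay between -0.22 and 0.01. This is a description over genes that share the array platform, the clones and the processing. Genes higher at 88 h had medians between -0.16 and 0.17 in the adult groups, and genes lower at 88 h between -0.07 and 0.02. Of the genes that led at 88 h, Lsp2 was also far from 0 in the adults, with the opposite sign, whereas Fbp2 was near 0. Lsp2, at 8.52 in larvae, was between -7.25 and -4.59 in all 7 adult groups, likely far below the yeast-fed adults, while Fbp2 was between -0.21 and 0.07. Obp99b was between -2.09 and -1.65 in the male groups and between -0.35 and -0.05 in the female groups. The digestive proteases, at a median of 1.18 in larvae, had adult medians between -0.27 and 0.39.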

How the data were processed

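RNA of whole larvae or adults was hybridised to spotted 2-colour arrays. The authors' deposited values are log2 ratios, 1 merged value per spot and group: all 12 groups had identical columns in their arrays. The base was checked on the values: read in base 2, 99.99% of them gave a fold that was whole in its 6th decimal (tolerance 0.05 of that decimal), against 9.59% in base e and 9.48% in base 10. How background, normalisation and centring were handled, and with which software, is not given in the sources used here. Scanner intensities were not used here.

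Of 32448 spots, 24188 had values, for 12094 clones. A gene identifier named 9814 clones, an accession 87 and a symbol alone 247, while 1945 had no name and 1 matched several genes. A gene's value is the median over its clones. Current symbols and gene order came from RefSeq's annotation of Drosophila release 6. A fit with limma was foreseen only if arrays held their own values, so no test was made and a call means at least 2-fold. Simulated data with known changes tested the step from clones to genes and the 2-fold calls, not the lists. Python 3.11.15 with pandas 2.3.3, numpy 2.4.6 and matplotlib 3.10.9 was used.

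The comparison and the 60 gene lists, 59 of which had a measured gene, were chosen with earlier results of these data known. Named were the 25 highest and lowest genes, all members of lists with up to 15 measured genes, the 5 highest and lowest of longer lists, the 10 largest differences between ages, the 15 clearest peaks and troughs and runs of 3 or more neighbours; a selection of these is printed. An entry of the lysozyme list and one of the testis list were removed as naming errors after the data were seen. The number of arrays limits the precision. Other thresholds, centrings and clone choices were tried.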

Additional observations from a re-analysis of the deposited data

Results flagged for a closer look

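In 5 genes the ratio was past 2-fold at 88 h and past 2-fold the other way at another age against the same 40 h control. These differences were not tested, since each age has 1 merged value. Acp1, named as an adult cuticle protein, stood at 1.73 at 88 h and -1.19 at 100 h, a difference of 2.92. CG14417 stood at -1.55 at 88 h and 1.07 at 52 h, a difference of -2.62. CG14422, which lies in the run of lower neighbours CG3598 to CG14423, stood at -3.11 at 88 h and 1.39 at 52 h, a difference of -4.50. CG7406 stood at -2.84 at 88 h and 1.74 at 64 h, a difference of -4.58, and the cuticle gene Cpr67Fb at -1.97 and 1.23, a difference of -3.20.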

How the results depend on the processing

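No paired analysis was possible because the arrays of a group hold 1 merged value, and for the same reason no array could be left out. At a threshold of 1.5-fold in place of 2-fold, 703 genes were higher and 863 lower at 88 h, and at 3-fold 139 and 137. With the cytosolic ribosomal protein median at 0, which moves all genes by 0.22, 462 were higher and 261 lower. List counts near the threshold depend on this too. Under that centring the mitochondrial ribosomal proteins had a median of -0.75 and the nucleolus list -0.97. Genes apart between 88 and 76 h numbered 539 at 1.5-fold and 18 at 3-fold, and between 88 and 100 h 1247 and 64. Of 2668 alternative values for 667 named genes, 2661 moved by less than 0.34, the standard deviation implied by pairs of clones, and none changed sign past 2-fold. The 7 that moved all came from taking the clone nearest to 0: AANATL6 then stood at 2.44, Obp99b at 4.34, br at 0.23, ImpE3 at 0.03, Argk1 at -0.22, and Ir8a and Tret1-1 at -0.03. All 236 alternative medians of the 59 lists moved by less than 0.34. Both centrings shifted every gene by the same amount, 0.03 or 0.22, so no value could move by 0.34 under them. The clone choices alter only genes with more than 1 clone, and most called genes had 1. These counts were thus largely fixed beforehand and say little about stability.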

Other observations

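Some clones without a single gene name were also past 2-fold. Of 1946 such clones, 1945 had no name and 1 matched several genes. At 88 h 41 of them were at least 2-fold higher and 29 at least 2-fold lower, with values from -4.98 to 8.12. Both are smaller shares than the 3.22% higher and 4.23% lower among the named genes. The clone at 8.12 is thus close to Lsp2 at 8.52 and Fbp2 at 7.85. Of the genes with more than 1 clone, 30 had clones over 1 apart at 88 h, and 9 of these were among the called genes.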
